A study of Mus musculus with 12 samples.

Results

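Transcripts of 9 mouse enzymes were followed, 9 of the 24062 gene symbols counted in each library. They were listed by name for their pathway, with earlier results of these data known. Phgdh, Psat1 and Psph make serine, Shmt2, Mthfd2, Mthfd1l and Aldh1l2 carry out the folate reactions of the mitochondrion, and Aldh18a1 and Pycr1 make proline. The levels were read in 12 RNA-seq libraries, each from 1 mouse, in 4 groups of 3. There were 6 livers of male LAP-tTA/TRE-MYC mice of the FVB strain, here called MYC-ON livers, and 6 tumors of HCC53N cells grown in mice which the labels call NOD-SKID. In each model, 3 mice ate a complete control diet and 3 ate the same diet without tryptophan (the No-Trp diet), in all cases for 21 days. Per the study, MYC-ON mice fed these diets for 21 days to compare tumor burden were all killed at the same age, as young adults. Whether the sequenced livers came from those mice is not stated in the sources used here, nor is the age of the xenograft hosts.

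In LAP-tTA/TRE-MYC mice a liver promoter drives the tetracycline transactivator, which switches on a MYC transgene once doxycycline is withdrawn. Doxycycline was withdrawn at birth, so all 6 livers expressed the transgene and the livers include no group without it. The study reports a lower MYC level in No-Trp than in control MYC-ON livers, though still above that of wild-type mice. The part of that difference in the results was not tested. HCC53N is 1 line, derived from mouse liver tumors with Alb-Cre deletion of floxed p53 and a mutant Nras transgene, and the xenografts were grown under the skin of mice that the methods give as female, with repeats in males. The labels do not give the sex of the sequenced hosts. The labels describe the injected cells as MYC-ON too. Every xenograft of both diets carries these changes. Tissue, host, cell of origin and possibly sex differ between the models and cannot be told apart in any comparison of livers with xenografts.

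Serine is made from the glycolytic intermediate 3-phosphoglycerate by PHGDH, PSAT1 and PSPH in turn. SHMT2 splits serine in the mitochondrion into glycine and a carbon unit bound to tetrahydrofolate, which MTHFD2 and then MTHFD1L turn into formate for purine and thymidylate synthesis, while ALDH1L2 oxidises the folate-bound unit to carbon dioxide. ALDH18A1 converts glutamate to the precursor of proline and ornithine, and PYCR1 performs the last step to proline. Many of these genes are known targets of ATF4, the transcription factor that is translated when cells lack an amino acid, and several are known to be driven by MYC in tumors.

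Reads on genes numbered 14660963 to 26085349 a library. Levels are given in CPM, the usual unit of read counts relative to the reads on genes of the library, scaled by TMM factors over the 12 libraries, and in each sentence in the order of livers 101, 102 and 103 (control) and 105, 107 and 108 (No-Trp), or of xenografts 40, 41 and 43 (control) and 35, 36 and 37 (No-Trp). A change is called where the Benjamini-Hochberg value of the edgeR quasi-likelihood test, computed across every tested gene, was 0.05 or less and the log2 fold change was 1 or more in either direction. The p-values set the difference between groups against the spread between mice. In xenografts that spread is between tumors of 1 cell line. Albumin (Alb) marked the livers as hepatic, with 4522 to 25596 CPM in the control group and 30217 to 88176 CPM without tryptophan, and was far lower in the xenografts, at 74.8 to 344 CPM. In the xenografts Trp53, which the labels give as deleted, still counted 17.5 to 22.8 CPM, against 115 to 133 CPM in control livers. The tumor holds host cells, and the human MYC transgene is not counted by the mouse gene Myc, so neither gene checks the labels fully.

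Liver 107 stood apart. It had the lowest level of the 6 livers for all 9 genes and the lowest TMM factor of the 12 libraries, 0.685, at 23751118 reads on genes. Xenografts 36 and 37 lay above every control xenograft for 9 of 9 genes, while xenograft 35 did so for 4. A mark of resubmission is carried by 4 libraries, livers 101 and 108 and control xenografts 41 and 43, and control xenograft 40 has its data named in another pattern than the other tumors.

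On the No-Trp diet these transcripts ran lower in the livers and higher in the xenografts. The log2 fold change was below 0 for 8 of 9 genes in livers and above 0 for 9 of 9 in xenografts, against 50.2% and 49.5% of all genes tested. Both held for 8 of 9 genes, against 24.7% of the genes tested in both models. By edgeR few single changes passed the test. In livers 1 of 9 genes was called lower (background 7.27%), Mthfd1l. In xenografts 0 of 9 were called (background 0.36%), with 6 of 9 at an unadjusted p under 0.05 (background 16.9%). In livers 4 of 9, Phgdh, Shmt2, Mthfd1l and Aldh18a1, had an unadjusted p under 0.05 by edgeR. So did 5901 of all 14122 genes tested in livers, a share close to that of the 9 genes. The difference between the diet effects, tested as an interaction, was called for 4 of 9 genes, Shmt2, Mthfd2, Mthfd1l and Aldh18a1, all with a higher effect in xenografts (background 6.7%). DESeq2, the test the study used, called 5 of 9 genes in livers (background 19.6%), all lower, 2 of 9 in xenografts (background 2.48%), both higher, and 7 of 9 in the interaction (background 17.8%), all with a higher effect in xenografts.

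**Figure D1:**
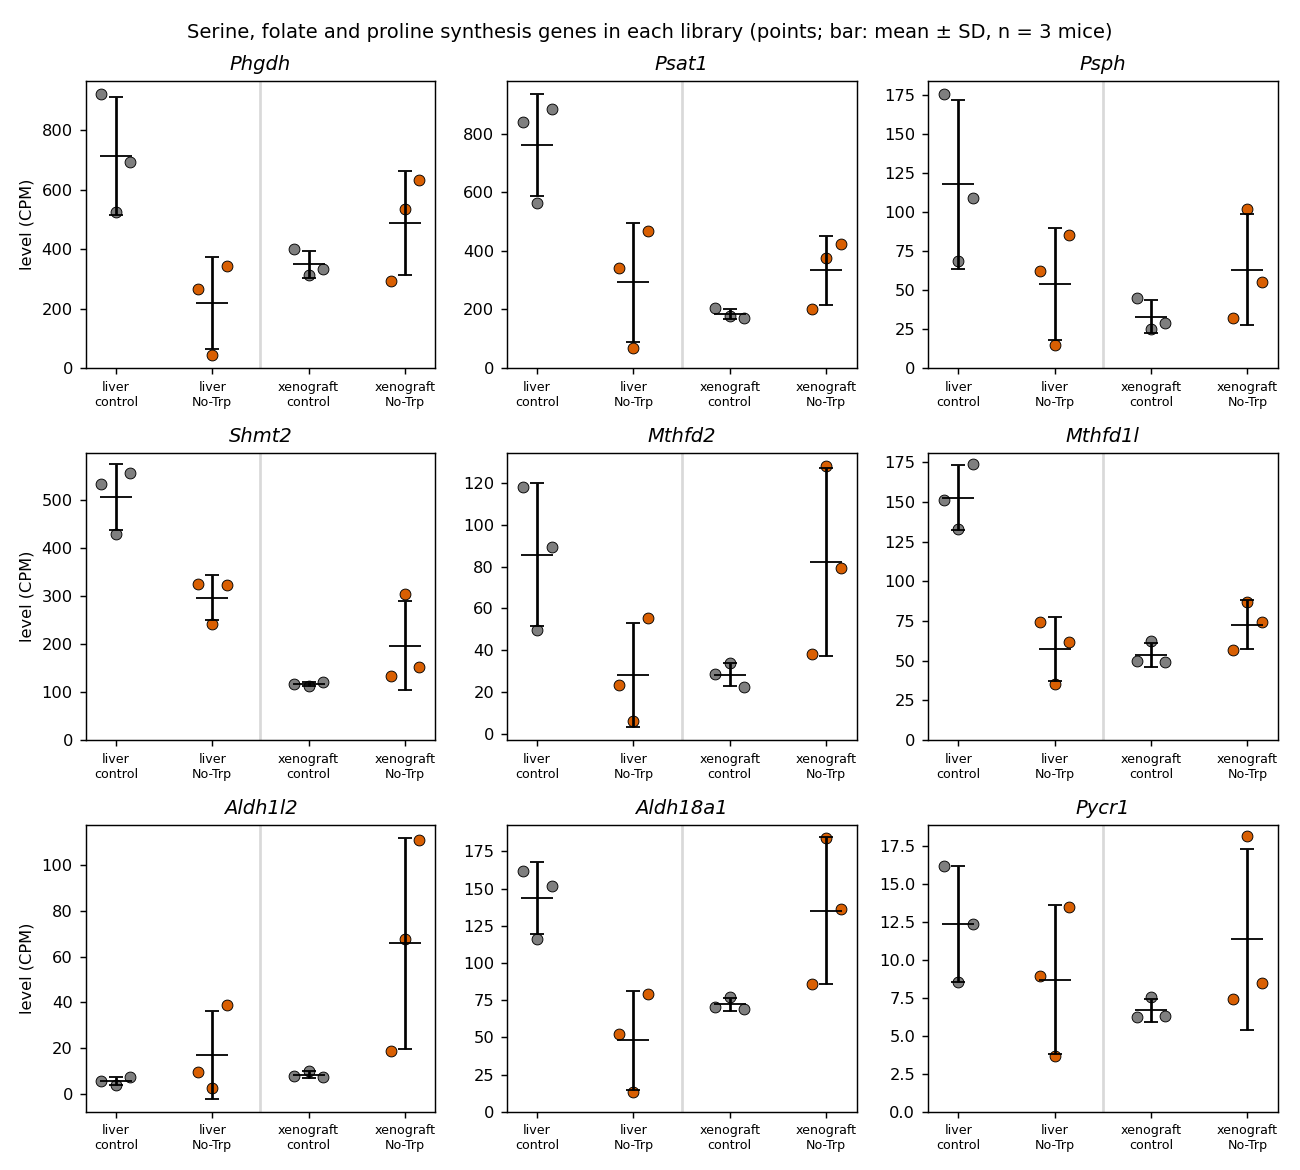
Level (CPM, linear axis, one panel a gene) of the 9 enzymes in each of the 12 libraries by model and diet, with points for mice and bars for the mean ± SD of 3 mice. No-Trp livers lie below all control livers for 5 genes, and No-Trp xenografts lie above all control xenografts for 4.

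The regions just upstream of these genes were read for 2 short motifs, the E-box CACGTG, which MYC and its relatives bind, and TGATGNAA, the core of the element that ATF4 binds with C/EBP partners. RefSeq entries on GRCm38.p6 were found for 8 of the 9 genes, with 9 start sites in all. Both strands of the 250 bases before each start were searched. CACGTG was found upstream of 1 gene, Aldh18a1, at -59 from the start, and is present in 6.02% of 32851 such windows. TGATGNAA was found upstream of 1 gene, Pycr1, at -103, and is present in 3.45% of windows. The other 7 windows held neither. Both windows with a match are given here with that of Mthfd1l, the gene called in livers. They are printed in the direction of transcription with the matched motif in capitals, and lie at chr10:3972825-3973074 (plus strand), chr19:40588464-40588713 (minus strand) and chr11:120643749-120643998 (minus strand).
Mthfd1l: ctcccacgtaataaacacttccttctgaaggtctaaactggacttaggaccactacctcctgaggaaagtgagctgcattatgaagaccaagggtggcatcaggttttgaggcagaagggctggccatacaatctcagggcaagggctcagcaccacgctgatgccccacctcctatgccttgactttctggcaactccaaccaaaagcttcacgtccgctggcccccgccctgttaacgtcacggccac
Aldh18a1: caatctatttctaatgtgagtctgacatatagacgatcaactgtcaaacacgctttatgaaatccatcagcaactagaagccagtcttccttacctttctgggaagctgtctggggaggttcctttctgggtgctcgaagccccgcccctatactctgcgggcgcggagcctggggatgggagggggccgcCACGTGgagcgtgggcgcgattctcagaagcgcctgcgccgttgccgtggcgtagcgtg
Pycr1: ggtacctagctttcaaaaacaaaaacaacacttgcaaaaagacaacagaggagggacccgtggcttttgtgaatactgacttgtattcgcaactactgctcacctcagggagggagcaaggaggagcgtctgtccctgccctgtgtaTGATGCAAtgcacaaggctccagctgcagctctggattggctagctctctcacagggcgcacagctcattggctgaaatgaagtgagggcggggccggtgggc
These matches say only which letters lie in the windows. Aldh18a1 with the E-box and Mthfd1l with neither motif were both among the 4 genes whose diet effect differed between the models, and Pycr1 was not.

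The 3 serine genes were lower in all No-Trp livers than the control mean. Phgdh, on chromosome 3 at 98313170 to 98339990 of GRCm38 and coding for the committing enzyme of the pathway, stood at 921, 524 and 693 CPM in control livers and at 267, 44.3 and 342 CPM in No-Trp livers. All No-Trp livers lay below all control livers, and mouse 107 lay far below the other 2. Its log2 fold change was -1.70 ± 0.67 (SE, adjusted p = 0.101 by edgeR), and without mouse 107 it was -1.22 and passed the test (adjusted p = 0.0467 by edgeR). In xenografts Phgdh stood at 400, 313 and 332 CPM on the control diet and 293, 535 and 632 CPM on the No-Trp diet, with xenograft 35 below all controls and the other 2 above them. That gave a log2 fold change of 0.47 ± 0.27 (adjusted p = 0.420 by edgeR).

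Psat1, on chromosome 19 at 15904678 to 15947337, codes for the aminotransferase of the second step. It stood at 841, 562 and 882 CPM in control livers and 343, 70.1 and 467 CPM in No-Trp livers, again without overlap, at a log2 fold change of -1.37 ± 0.62 (adjusted p = 0.139 by edgeR). In xenografts it stood at 204, 177 and 171 CPM on the control diet and 201, 377 and 423 CPM on the No-Trp diet. Xenograft 35 lay among the controls and the other 2 above them, and the log2 fold change was 0.85 ± 0.26 (adjusted p = 0.177 by edgeR). Psph, on chromosome 5 at 129765558 to 129787449, codes for the phosphatase that releases serine. It stood at 176, 68.7 and 109 CPM in control livers and 62.5, 14.8 and 85.1 CPM in No-Trp livers, where the groups overlapped through control mouse 102 and No-Trp mouse 108. The xenografts gave 45.2, 25.0 and 28.8 CPM on the control diet and 32.0, 102 and 55.1 CPM on the No-Trp diet. Its log2 fold changes were -1.11 ± 0.62 in livers (adjusted p = 0.219 by edgeR) and 0.92 ± 0.43 in xenografts (adjusted p = 0.331 by edgeR).

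By edgeR, none of the 3 serine genes was called in either model or in the interaction. DESeq2 called Phgdh and Psat1 lower in livers (adjusted p = 0.0185 and 0.0494) and all 3 in the interaction (adjusted p = 0.0213 for Phgdh, 0.0119 for Psat1 and 0.0463 for Psph). In the edgeR fit the diet effect was higher in xenografts by 2.19 ± 0.78 for Phgdh (adjusted p = 0.0777 by edgeR), 2.24 ± 0.73 for Psat1 (adjusted p = 0.0587) and 2.06 ± 0.83 for Psph (adjusted p = 0.112), on the log2 scale. Leaving out liver 107 lowered the first 2 differences to 1.72 and 1.79, and both then passed the test (adjusted p = 0.0302 and 0.0224 by edgeR).

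Mitochondrial folate enzymes held 3 of the 4 called differences between the models. Shmt2, on chromosome 10 at 127517123 to 127522444, codes for the serine hydroxymethyltransferase of the mitochondrion. It stood at 534, 429 and 558 CPM in control livers and 325, 242 and 324 CPM in No-Trp livers, with no overlap. The log2 fold change of -0.76 ± 0.21 had an adjusted p of 0.0404 by edgeR but was under the fold threshold. By the adjusted p alone, 2 of the 9 genes were lower in livers, Shmt2 and Mthfd1l (background 12%). In xenografts Shmt2 stood at 117, 113 and 120 CPM on the control diet and 133, 304 and 153 CPM on the No-Trp diet. All No-Trp xenografts lay above the controls, 2 of them narrowly, and the log2 fold change was 0.74 ± 0.29 (adjusted p = 0.264 by edgeR). The difference between the models, 1.53 ± 0.38, was called (adjusted p = 0.0229 by edgeR).

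Mthfd1l, on chromosome 10 at 3973118 to 4167081, codes for the enzyme that releases formate. It stood at 151, 133 and 174 CPM in control livers and fell to 74.6, 35.0 and 61.9 CPM in No-Trp livers, with no overlap. That made a log2 fold change of -1.40 ± 0.28 (adjusted p = 0.0217 by edgeR), or 2.65-fold lower, and -1.16 without mouse 107 (adjusted p = 0.0181 by edgeR). The call was lost when control liver 101, control liver 103 or No-Trp liver 105 was left out, with adjusted p of 0.0611, 0.0884 and 0.0510. In xenografts the gene stood at 49.7, 62.1 and 48.9 CPM on the control diet and 56.9, 87.1 and 74.2 CPM on the No-Trp diet, with xenograft 35 inside the control range. The log2 fold change there was 0.43 ± 0.19 (adjusted p = 0.296 by edgeR), and the difference between models, 1.86 ± 0.36, was called (adjusted p = 0.0103 by edgeR). It was also called in all 12 fits that each left out 1 library, at 1.61 to 2.10.

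Mthfd2, on chromosome 6 at 83305691 to 83325908, codes for the dehydrogenase and cyclohydrolase that precedes MTHFD1L and is low in most resting adult tissues. It stood at 118, 49.8 and 89.1 CPM in control livers and 23.3, 6.40 and 55.3 CPM in No-Trp livers, where mouse 108 lay above control mouse 102. The xenografts gave 28.8, 33.8 and 22.7 CPM on the control diet and 38.5, 128 and 79.5 CPM on the No-Trp diet, all 3 above all controls. The log2 fold changes were -1.59 ± 0.71 in livers (adjusted p = 0.138 by edgeR) and 1.52 ± 0.41 in xenografts (adjusted p = 0.157 by edgeR). Without xenograft 35 the xenograft value was 1.87 and passed the test (adjusted p = 0.0416 by edgeR). The difference between models was 3.13 ± 0.90, the largest of the 9, and was called (adjusted p = 0.0393 by edgeR).

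Aldh1l2, on chromosome 10 at 83487450 to 83534140, was the exception in livers. It stood at 5.65, 4.06 and 7.31 CPM in control livers and 9.84, 2.83 and 39.0 CPM in No-Trp livers, so that mice 105 and 108 lay above all controls and mouse 107 below them. In xenografts it stood at 7.94, 10.1 and 7.43 CPM on the control diet and 18.8, 67.5 and 111 CPM on the No-Trp diet, with no overlap. The log2 fold change was 1.60 ± 0.85 in livers (adjusted p = 0.196 by edgeR) and 2.95 ± 0.61 in xenografts (adjusted p = 0.102 by edgeR), the largest of the 9 there. Without xenograft 35 it was 3.40 and passed the test (adjusted p = 0.0126 by edgeR), and DESeq2 called it on all 6 xenografts (adjusted p = 4.83e-08). The difference between the models was 1.36 ± 1.10 and was not called (adjusted p = 0.423 by edgeR).

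Of the proline genes, Aldh18a1 on chromosome 19 at 40550257 to 40588463 codes for the first and committing enzyme. It stood at 162, 116 and 152 CPM in control livers and 52.1, 13.0 and 78.8 CPM in No-Trp livers, with no overlap and mouse 107 lowest. Its log2 fold change was -1.57 ± 0.57 (adjusted p = 0.0842 by edgeR), and -1.12 without mouse 107, which passed the test (adjusted p = 0.0343 by edgeR). In xenografts it stood at 70.4, 77.4 and 69.1 CPM on the control diet and 85.7, 184 and 136 CPM on the No-Trp diet, again with no overlap, at 0.89 ± 0.25 (adjusted p = 0.157 by edgeR). The difference of 2.48 ± 0.68 between models was called (adjusted p = 0.0332 by edgeR).

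Pycr1, on chromosome 11 at 120635712 to 120643769, was low in all 12 libraries and had the smallest log2 fold change of the 9 in livers. It stood at 16.2, 8.57 and 12.4 CPM in control livers and 8.92, 3.69 and 13.5 CPM in No-Trp livers, with the groups overlapping. Levels in xenografts were 6.23, 7.54 and 6.28 CPM on the control diet and 7.40, 18.2 and 8.48 CPM on the No-Trp diet, where mouse 36 stood apart from the other 5. The log2 fold changes were -0.50 ± 0.47 in livers (adjusted p = 0.453 by edgeR) and 0.75 ± 0.36 in xenografts (adjusted p = 0.331 by edgeR). The difference, 1.28 ± 0.64, was not called (adjusted p = 0.193 by edgeR).

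**Figure D2:**
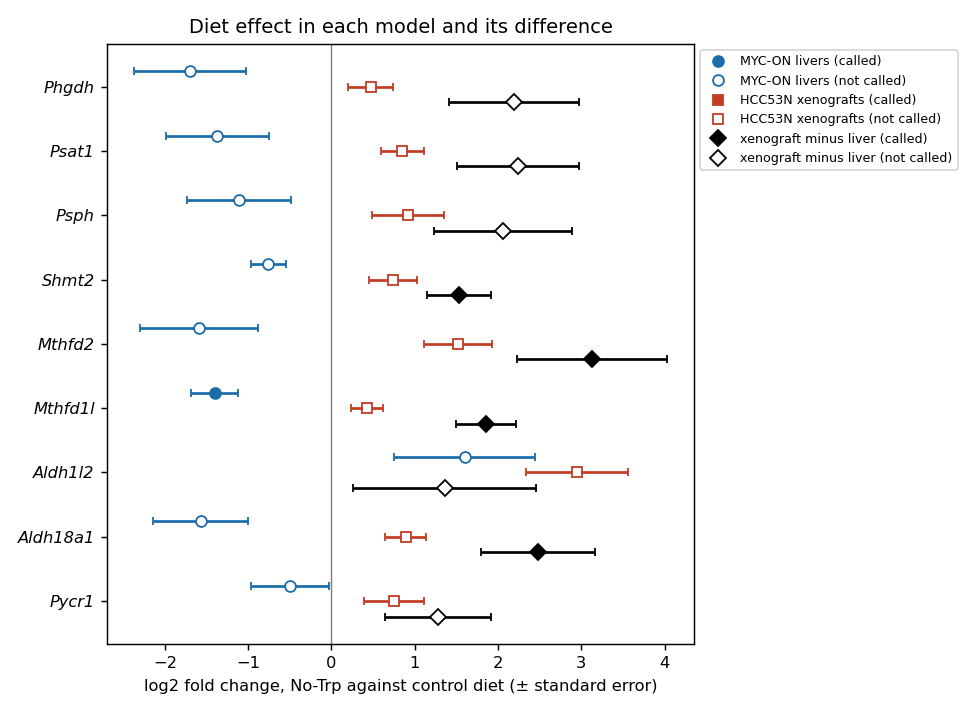
Diet effect (log2 fold change, No-Trp against control diet, ± SE, 3 mice a group) of each enzyme in MYC-ON livers and HCC53N xenografts, and the xenograft effect minus the liver effect, with filled symbols for called values. Liver values lie left of 0 except for Aldh1l2, xenograft values lie right of 0, and the difference is filled for Shmt2, Mthfd2, Mthfd1l and Aldh18a1.

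Over the 9 genes the median log2 fold change was -1.37 in livers (all genes, 0) and 0.85 in xenografts (all genes, 0), and the median difference was 2.06 (all genes, 0.03). Groups did not overlap for 5 of 9 genes in livers, all lower (background 25%), and for 4 of 9 in xenografts, all higher (background 10.8%). Without liver 107 the liver values kept their sign, at -1.22 for Phgdh, -0.91 for Psat1, -0.67 for Psph, -0.64 for Shmt2, -1.12 for Mthfd2, -1.16 for Mthfd1l, 2.11 for Aldh1l2, -1.12 for Aldh18a1 and -0.14 for Pycr1. Shmt2 then had an adjusted p of 0.0898 by edgeR. The calls depended on single libraries. In livers 0 to 3 of the 9 were called when 1 library was left out, with 0 called without liver 101, 103 or 105 and 3 without liver 107. In xenografts 2 were called without xenograft 35 and none without any other. The interaction was called for 1 to 6 genes, with 1 left without liver 103, 2 left without liver 101 or 105 or xenograft 36, 37, 40, 41 or 43, and 6 without liver 107 or 108.

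The resubmission mark was examined as a possible batch. In the libraries without it, 2 control and 2 No-Trp livers gave 9 of 9 negative differences of mean log2 CPM (median -1.57), among them Aldh1l2 at -0.04. The marked pair, livers 101 and 108, gave 8 of 9 (median -1.04), with Aldh1l2 at 2.77. The unmarked xenografts, 1 control and 3 No-Trp, gave 9 of 9 positive differences (median 0.65), and no No-Trp xenograft carries the mark. Signs of library quality were compared by group, and both ran higher in control than in No-Trp xenografts. Reads left out by the counting made up 28.5% to 39.4% in control and 26.4% to 26.8% in No-Trp xenografts, and 25.2% to 36.1% and 24.7% to 27.5% in livers. The ribosomal transcript Rn45s took 0.464% to 0.758% of gene reads in control and 0.263% to 0.333% in No-Trp xenografts, and 0.587% to 12.1% (highest in liver 101) and 0.261% to 0.602% in livers. Leaving Rn45s out changed no count of called members, and the part of the left-out reads was not tested.

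Genes of proliferation and of hepatocytes differed between the same groups. The summed level of 14 proliferation genes was 2250 to 2490 CPM in control livers and 316 to 808 CPM in No-Trp livers. This sum was lowest in mouse 107, and 12 of the 14 genes were called lower in livers (median -2.07, background 7.27%). In xenografts it was 965 to 994 CPM on the control diet and 1180 to 1540 CPM on the No-Trp diet, highest in mouse 36, with 0 of 14 called and all 14 log2 fold changes above 0 (median 0.57). The difference between the models was called for 13 of 14, higher in xenografts (median 2.74, background 6.7%). The sum of 14 hepatocyte markers was 14800 to 46800 CPM in control livers and 61300 to 145000 CPM in No-Trp livers, highest in mouse 107, and that of 6 oncofetal tumor genes, such as Afp and H19, was 23800 to 30400 and 2330 to 13700 CPM. In xenografts the hepatocyte markers summed to 841 to 2370 CPM and the oncofetal genes to 797 to 1190 CPM, with the diets overlapping. In bulk tissue, fewer cells of a type and less RNA per cell cannot be told apart. The part of these genes in the results was not tested.

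Markers of other cell types were summed in the same way. The 8 erythroid markers summed to 59.4 to 580 CPM in control livers and 19.6 to 28.9 CPM in No-Trp livers, with the globin genes Hba-a1 and Hbb-bs listed at 0 in every library, and to 3.78 to 6.78 CPM in xenografts. The 5 adipocyte markers summed to 11.4 to 66.9 CPM in control and 351 to 739 CPM in No-Trp xenografts. None was at 0 in the latter, and Lep was at 0 in control xenograft 40. In livers they summed to 30.8 to 41.8 CPM on the control and 14.6 to 20.6 CPM on the No-Trp diet, without overlap. Fabp4, which was called lower, made up most of the liver sums, with group means of 33.4 and 16 CPM. Every other member had a liver mean of 1.65 CPM or less. Of these, Adipoq and Plin1 were higher on the No-Trp diet and Cfd and Lep lower. The 6 endothelial markers summed to 48.8 to 121 CPM in control and 132 to 211 CPM in No-Trp xenografts, and to 92.1 to 165 CPM in control and 158 to 282 CPM in No-Trp livers, where Tek was called higher. The 7 stromal markers summed to 1100 to 4320 CPM in control and 1740 to 5430 CPM in No-Trp xenografts, and to 708 to 835 and 629 to 833 CPM in livers. The 5 bile duct markers summed to 3910 to 10800 and 2940 to 5040 CPM in xenografts and to 86.7 to 167 CPM in livers. Spp1 made up most of the xenograft sums, with group means of 6840 and 3300 CPM. Spp1 and Sox9 ran lower in No-Trp xenografts, while Krt19, Krt7 and Epcam ran higher. The 7 lymphocyte markers summed to 22.8 to 27.1 CPM in control xenografts and 27.6 to 36.1 CPM in No-Trp xenografts, with Ms4a1 at 0 in control mouse 41, and to 14 to 27.9 CPM in livers, where the diets overlapped. The 8 macrophage markers (289 to 448 CPM in xenografts, 415 to 910 CPM in livers) and the 5 muscle and skin markers (23.6 to 182 CPM in xenografts, 41.1 to 129 CPM in livers) overlapped between diets in both models. Their part in the results was not tested.

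The 5 relatives of these enzymes given here showed no common direction in livers. Shmt1, the cytosolic partner of Shmt2, had a log2 fold change of 0.28 ± 0.20 (adjusted p = 0.318 by edgeR), and Mthfd1, the cytosolic trifunctional enzyme, -0.20 ± 0.18 (adjusted p = 0.422). Mthfd2l, the close relative of Mthfd2, gave 0.56 ± 0.33 (adjusted p = 0.235 by edgeR). Aldh1l1, the cytosolic counterpart of Aldh1l2, ran from 59.3, 347 and 54.1 CPM in control livers to 772, 1418 and 494 CPM in No-Trp livers, at 2.57 ± 0.83 (adjusted p = 0.0602 by edgeR). Its highest level was in mouse 107, where all 9 enzymes were lowest, and its difference between models, xenograft minus liver, was -3.32 ± 0.92 and was called (adjusted p = 0.0351 by edgeR). Pycr3, counted under its older symbol Pycrl, gave -0.82 ± 0.21 in livers (adjusted p = 0.0316 by edgeR), under the fold threshold. In xenografts none of the 5 was called, at -0.79 for Aldh1l1 to 0.49 for Shmt1.

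**Figure D3:**
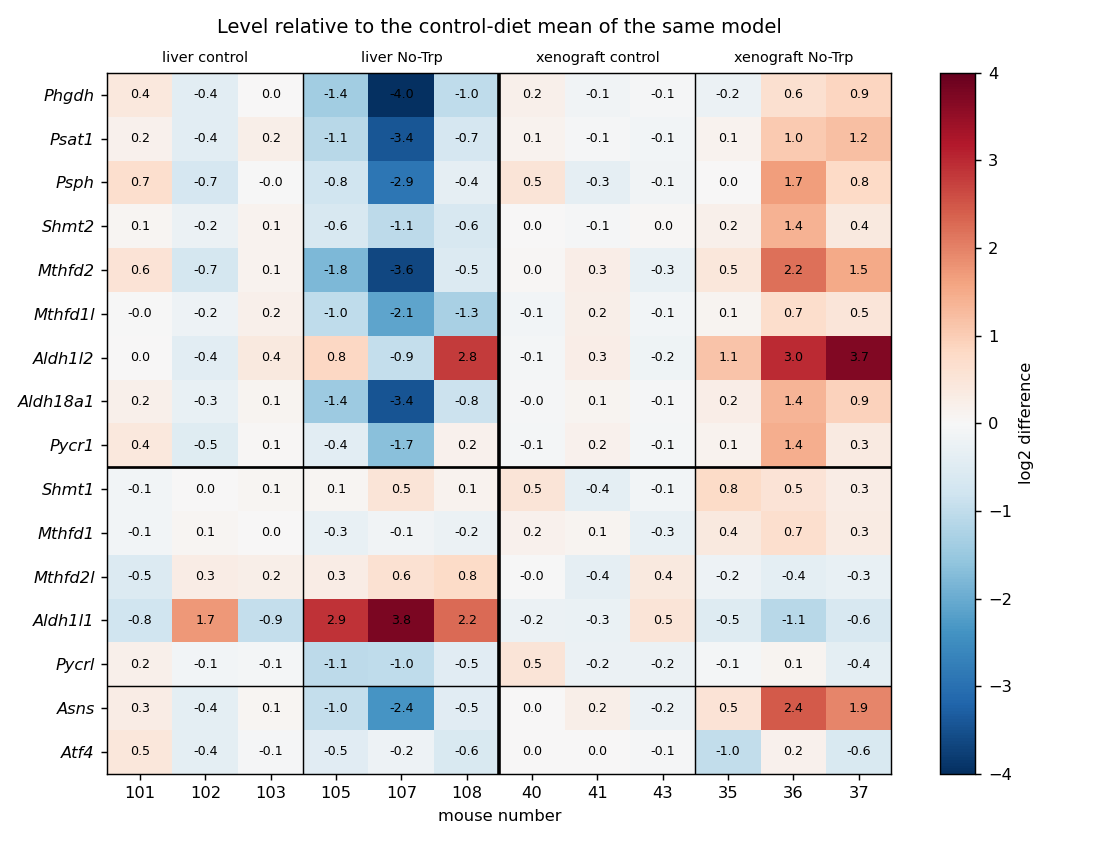
Level of the 9 enzymes, 5 relatives, Asns and Atf4 in each mouse as a log2 difference from the control-diet mean of the same model. The column of liver 107 is the lowest for 9 of 9 enzymes, the columns of xenografts 36 and 37 lie above 0 for 9 of 9, and Aldh1l1 runs the other way in No-Trp livers.

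The wider pathways held calls in both directions. Of 19 other folate enzymes and carriers, 1 was called higher and 3 lower in livers (median 0.04, background higher 9.28% and lower 7.27%). Ftcd, which passes a carbon group from histidine breakdown to folate, rose by 1.77 on the log2 scale (adjusted p = 0.0173 by edgeR). The purine and thymidylate enzymes Gart, Atic and Tyms fell, with log2 fold changes of -1.17, -1.32 and -1.46 (adjusted p = 0.0232, 0.0251 and 0.0258 by edgeR). In xenografts 0 of 19 were called (median 0.18). In the interaction 5 were called higher and 2 lower, against 1036 and 930 of all 15472 genes tested.

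Of 14 tested genes of glycine and serine breakdown, 5 were called higher in livers and 0 lower (median 0.57; background higher 9.28%). On the log2 scale they were the serine dehydratase Sds at 1.99, the serine racemase Srr at 1.53 and the glycine methyltransferase Gnmt at 2.56. Dmgdh and Sardh, which demethylate dimethylglycine and sarcosine, followed at 1.70 and 1.32. The adjusted p of these 5 was 0.0110 to 0.0365 by edgeR. In xenografts 0 of 14 were called (median 0.14). The difference between the models was called for 4, all lower in xenografts, against 930 of all 15472 genes tested.

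Of 12 proline and ornithine neighbours, 3 were called higher and 2 lower in livers (median 0.26, background higher 9.28% and lower 7.27%). Prodh, which starts proline breakdown, rose by 1.43, Glud1 by 1.49 and the liver glutaminase Gls2 by 1.03 on the log2 scale, with adjusted p of 0.0136, 0.0182 and 0.0360 by edgeR. In xenografts 0 of 12 were called (median 0.10).

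ATF4 and 23 of its other known targets held calls in both directions as well. In livers 8 of 24 were called higher and 1 lower (median 0.20, background higher 9.28% and lower 7.27%). Among those higher were Fgf21 at 4.14, Vldlr at 3.42, Atf5 at 2.18, Cebpb at 1.9, Vegfa at 1.37 and Sesn2 at 1.30 on the log2 scale (adjusted p of 0.00713 to 0.0253 by edgeR). The 1 called lower was Slc7a1, at -1.66 (adjusted p = 0.0467 by edgeR). In xenografts 0 of 23 tested were called higher and 1, Cebpb, lower at -1.25 (adjusted p = 0.0235 by edgeR, median 0.38, background 0.36%). The difference between the models was called higher in xenografts for 3, Asns, Slc7a5 and Slc7a1, and lower for 6. Over all 15472 genes tested, 1036 were called higher and 930 lower. The Atf4 transcript itself had log2 fold changes of -0.45 ± 0.25 in livers (adjusted p = 0.213 by edgeR) and -0.40 ± 0.27 in xenografts (adjusted p = 0.498). ATF4 is controlled largely through translation, which RNA counts do not measure. The study reports no effect of tryptophan starvation on ATF4, citing western blots of cultured HCC53N cells and of MYC-ON livers on both diets.

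Asns, the asparagine synthetase gene and a standard ATF4 target, ran beside the 9 enzymes. It stood at 315, 193 and 270 CPM in control livers and 131, 49.3 and 184 CPM in No-Trp livers, with no overlap and mouse 107 lowest. In xenografts it stood at 56.7, 65.0 and 47.1 CPM on the control diet and 81.2, 302 and 215 CPM on the No-Trp diet. The log2 fold changes were -1.08 ± 0.45 (adjusted p = 0.116 by edgeR) and 1.82 ± 0.44 (adjusted p = 0.132 by edgeR), and their difference, 2.92 ± 0.69, was called (adjusted p = 0.0205 by edgeR). Slc7a5 (-1.56 in livers and 1.52 in xenografts) and Slc7a1 (-1.66 and 1.12) also ran lower in livers and higher in xenografts. Of these values, only that of Slc7a1 in livers was called.

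**Figure D4:**
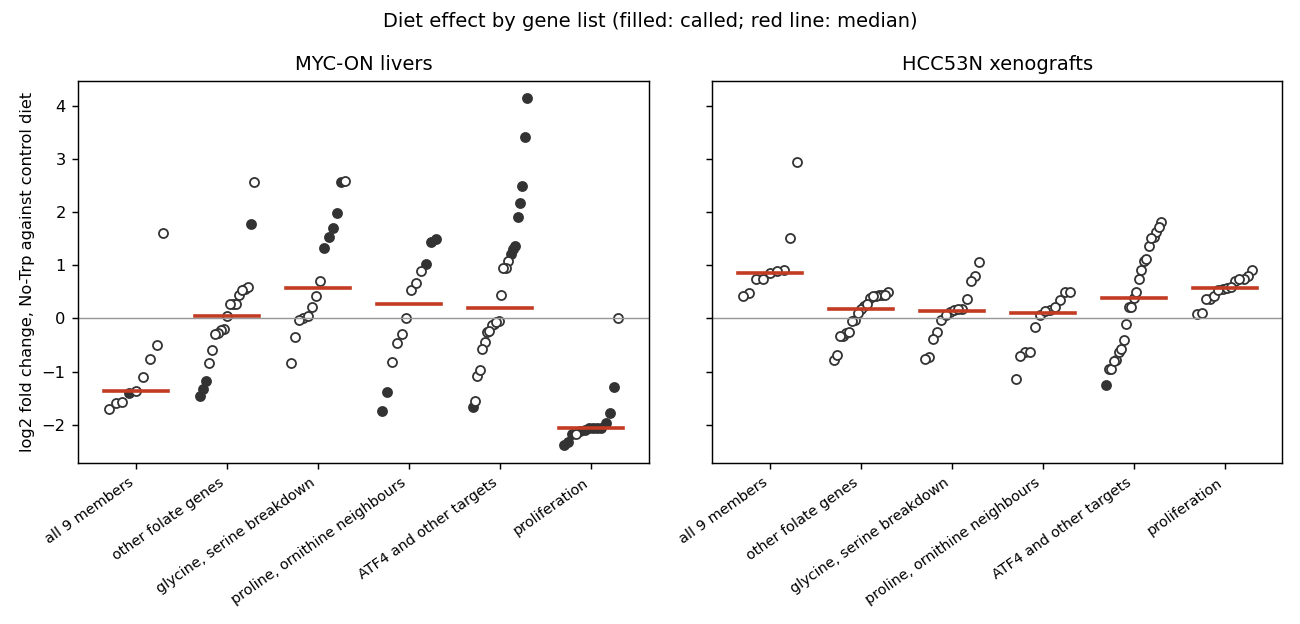
Log2 fold change, No-Trp against control diet, of every tested gene of 6 lists in MYC-ON livers and HCC53N xenografts, with filled points for called genes and a line at each list's median. The medians of the 9 enzymes are -1.37 and 0.85 and those of the proliferation genes -2.07 and 0.57, while the other 4 lists lie between 0.04 and 0.57.

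Levels of different genes were compared per kilobase of exon. In control livers Phgdh stood highest at 287 ± 80.0 CPM per kb (SD, n = 3), followed by Psat1 at 179 ± 40.9 and Shmt2 at 163 ± 22.2, which lay within each other's spread. Aldh18a1 (35.1), Mthfd1l (34.5), Psph (27.3) and Mthfd2 (24.5 CPM per kb) formed a lower set whose neighbours did not differ beyond their spread. Pycr1 at 3.15 ± 0.971 and Aldh1l2 at 0.756 ± 0.217 CPM per kb came last. In No-Trp livers Shmt2 headed the order of means at 95.5 ± 15.3 CPM per kb. Phgdh at 87.7 ± 62.3 and Psat1 at 68.9 ± 47.7 followed, with overlapping spreads. That order rested on mouse 107, since per kilobase Phgdh lay above Shmt2 in mice 105 and 108. In control xenografts Phgdh again stood first, at 140 ± 18.3 CPM per kb, well above Psat1 at 43.3 ± 4.11 and Shmt2 at 37.6 ± 1.09. In No-Trp xenografts the order began the same way, at 195 ± 70.4, 78.5 ± 27.5 and 63.4 ± 30.1 CPM per kb. Aldh1l2, the lowest of the 9 in both control groups, stood above Pycr1 in No-Trp xenografts, at 8.77 ± 6.16 against 2.90 ± 1.51 CPM per kb. The spreads between mice overlapped, though within each No-Trp xenograft Aldh1l2 was the higher per kilobase. In No-Trp livers the means of Aldh1l2 and Pycr1 were close, at 2.29 ± 2.56 and 2.21 ± 1.25 CPM per kb.

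On the control diet the enzymes were lower in xenografts than in livers, with the models' other differences as given above. The log2 difference was called for 5 of 9 genes, all lower (background 20.2%). These were Shmt2 at -2.12 ± 0.28 (adjusted p = 4.17e-05 by edgeR), Psat1 at -2.05 ± 0.53 (0.00579), Psph at -1.84 ± 0.60 (0.0203), Mthfd2 at -1.59 ± 0.64 (0.0493) and Mthfd1l at -1.51 ± 0.26 (0.000309). Phgdh, Aldh18a1 and Pycr1 were not called, at -1.03, -0.99 and -0.89. The control groups did not overlap for any of the 9, with 8 lower (background 31.8%) and 1 higher in xenografts (background 33.3%). The higher one was Aldh1l2, at 0.58 ± 0.78 (adjusted p = 0.550 by edgeR). Without liver 101, xenograft 41 or xenograft 43 the count was 3. The control livers and control xenografts enter both this comparison and the diet comparisons, so the values are set side by side and nothing is drawn from their likeness.

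Across libraries the 9 genes were positively correlated, with few exceptions. Over the 36 pairs of genes, the median Pearson r of log2 CPM was 0.92 in the 6 livers (-0.06 to 0.99) and 0.875 in the 6 xenografts (0.56 to 0.99). The points share the library, the scaling and the diet groups. The 2 negative pairs in livers both included Aldh1l2, which was highest in No-Trp mouse 108. Over all 12 libraries and 15471 other genes, the patterns most like that of Phgdh were those of Asf1b, Fignl1 and Hmgb2 (r = 0.977, 0.974 and 0.973). Those most like Shmt2 were Tom1l1, Fancl and Eprs (r = 0.975, 0.971 and 0.967), and those most like Aldh18a1 included Cenpk and Slc7a1 (r = 0.972 and 0.970).

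Several counts carry a limit from neighbouring genes. Psat1, Psph, Shmt2 and Aldh1l2 overlap a gene on the other strand, and Mthfd2, Mthfd1l and Aldh18a1 a small gene or pseudogene on their own strand. The strand setting of the counting is not given in the sources used here, so reads shared with those neighbours cannot be told apart. Phgdh and Pycr1 overlap no other annotated gene.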

How the data were processed

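RNA-seq of poly(A) RNA was analysed from 12 mice, 1 library each, grouped by their labels. The deposited values are raw read counts per gene symbol, which the authors made with Trim Galore for trimming, STAR 2.7.2b for alignment to mm10, SAMtools 1.9 and the HTSeq counter. The strand setting and the rule for overlapping genes are not given in the sources used here. Summary lines that name no gene, 24.7% to 39.4% of reads, entered neither library sizes nor tests. No library repeated another of its group (chi-square per degree of freedom 36.8 to 291).

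Counts were filtered with filterByExpr, scaled by TMM and tested with edgeR 4.0.16 (R 4.3.3, quasi-likelihood, robust, two-sided, Benjamini-Hochberg over all genes tested), for each diet comparison on its 6 libraries and for the interaction and the control-diet comparison of models on all 12. The study's own test, DESeq2, was run as an alternative (1.42.0), since edgeR was taken as the test for raw counts. Genes were called at an adjusted p up to 0.05 with a log2 change of 1 or more in size. Exact permutation of 3 against 3 mice cannot give a p below 0.1 and was not used. CPM uses the factors of the joint fit, and log2 CPM a prior count of 2. Per-kilobase levels use exon lengths of GENCODE M21 on GRCm38, as do the coordinates. Scripts were tested on simulated data.

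The members and the gene lists were chosen with earlier results of these data known. The text names the 9 members, up to 6 called genes per neighbouring list and diet comparison by smallest adjusted p, the relatives of members, Atf4, Asns, Trp53 and Myc, and for Phgdh, Shmt2 and Aldh18a1 the 3 genes of highest correlation. Alb, Slc7a5, the liver and xenograft values of Slc7a1, and markers named within a summed list, were added after values were seen. A few genes that this rule picks are not reported here. Genes matched through an older symbol numbered 2. Alternatives were DESeq2, RLE factors, library totals, no filter, at least 10 counts in every library, leaving out Rn45s, the adjusted p alone, the resubmission mark as a covariate, 1 joint fit, control-diet libraries only for the comparison of models, and leaving out each library.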

Additional observations from a re-analysis of the deposited data

Results flagged for a closer look

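The diet effect differed between the models for 4 of the 9 genes, by the interaction term of the edgeR fit over 12 libraries. On the log2 scale the xenograft effect exceeded the liver effect by 1.53 for Shmt2 (-0.76 in livers, 0.74 in xenografts), by 3.13 for Mthfd2 (-1.59 and 1.52), by 1.86 for Mthfd1l (-1.40 and 0.43) and by 2.48 for Aldh18a1 (-1.57 and 0.89). All 3 No-Trp xenografts lay above all controls for Shmt2, Mthfd2 and Aldh18a1, and all 3 No-Trp livers lay below all controls for Shmt2, Mthfd1l and Aldh18a1. With 1 library left out, the difference was called in 12 of 12 fits for Mthfd1l, 11 for Shmt2, 4 for Aldh18a1 and 4 for Mthfd2. Among all genes, 6.7% were called with the higher effect in xenografts, and the proliferation genes were called for 13 of 14 in the same direction. What accounts for the difference was not tested.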

How the results depend on the processing

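Over the alternatives tried, 639 values of single members kept the sign reported, 576 kept their side of the thresholds, 35 no longer passed and 28 newly passed. Those of the adjusted p alone come from the reported fit itself, so their sign could not change. In livers 1 of 9 was called, against 5 by DESeq2, 2 with library totals, 2 with the adjusted p alone and 3 in 1 joint fit, and 0 to 3 with 1 library left out; over all genes 2337 were called, 3043 by DESeq2, 2264 with library totals, 2759 in 1 joint fit, 3570 with the adjusted p alone and 8 to 3207 with 1 library left out, 8 without liver 103. In xenografts 0 of 9 were called, 2 by DESeq2 and 0 to 2 with 1 library left out; over all genes 53 were called, 380 by DESeq2, 82 with RLE factors, 118 with no filter, 85 without Rn45s, 15 with at least 10 counts in every library, 4 with the resubmission covariate, 23 in 1 joint fit and 9 to 78 with 1 library left out. For the interaction 4 of 9 were called, 7 by DESeq2, 2 with no filter and 1 to 6 with 1 library left out, over all genes 1966, 2735 by DESeq2, 1769 with no filter and 916 to 2571 with 1 library left out. Between models 5 of 9 were called, 3 to 7 with 1 library left out, over all genes 6724 and 6361 to 6818. The causes of these shifts were not tested, beyond the fewer mice of the fits that leave one out. Library totals in place of TMM shifted the median of all genes by -0.30 in livers, 0.11 in xenografts, 0.41 in the interaction and 0.17 between models (log2), and moved the share of calls that were higher from 56.1% to 32.3%, 67.9% to 84.5% and 52.7% to 80.7% in the first 3, with no member changing sign. No paired analysis was possible because the groups share no replicate numbers. With 3 mice a group, a difference that was not called was not shown to be absent.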
